A study of Mus musculus with 9 samples.

Results

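The genes that build and run the motile cilium were followed through mouse nasal mucosa in 9 RNA sequencing libraries. They were chosen by name: every row of the table whose mouse symbol begins with Dnah, Dnaic, Dnali, Dnaaf, Rsph, Tekt, Cfap or Drc and a digit, together with Foxj1, Ccdc39, Ccdc40, Mcidas, Ccno and Hydin. This gave 75 genes of the 21930 in the table. All mice were labelled WT. The papain+MSC-Exos group (3 libraries) received papain, a plant cysteine protease, at 20 µg in 20 µl into the nose on days 0 to 2 and 7 to 11 to model eosinophilic chronic rhinosinusitis, and exosomes of mesenchymal stem cells into the nose on days 7 to 11. The papain group (3 libraries) received the same papain without exosomes. The labels name phosphate-buffered saline as the alternative to exosomes on those days, without saying which mice were given it. The control group (3 libraries) is labelled as having no treatment. Tissue was taken on day 12. Strain, sex, age, the source of the stem cells, and whether each library is a separate mouse are not given in the labels, so the p-values reflect only how far these libraries differ from one another, and part of that may be technical.

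Motile cilia beat to move mucus over the airway surface. Their core, the axoneme, is a ring of doublet microtubules around a central pair. Outer and inner dynein arms on the doublets make the force, radial spokes and the nexin-dynein regulatory complex control it, and tektins and other proteins line the doublet wall. In the nose they belong to the multiciliated cells of respiratory epithelium, whereas the long cilia of mouse olfactory neurons carry odorant receptors and do not beat. Sperm tails share many of these proteins.

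RNA levels are the authors' deposited FPKM, a fragment count corrected for transcript length and for library size. The 15 genes of highest mean FPKM took 16.0% to 34.2% of the length-weighted total in papain+MSC-Exos libraries, 34.1% to 51.4% in papain libraries and 49.7% to 52.5% in control libraries. Exosome library 3 and papain library 2 each held the highest share of their group. FPKM is relative to the library total, so a smaller share for these few leaves a larger one for the other genes together. The part of this in the change of any single gene was not tested. Each comparison is given both as deposited and after dividing each library by its median-of-ratios factor (its typical ratio to an average library, taken over the 16486 genes detected in all 9), which is called scaled FPKM. Changes are limma estimates of log2(FPKM + 1); the added 1 shrinks the changes of weakly expressed genes, and "adjusted p" is limma's p with Benjamini-Hochberg adjustment over all genes tested. A gene was tested if it reached 1 FPKM in at least 3 libraries, and a call is an adjusted p under 0.05.

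The stretches just upstream of the genes' starts were searched for the half-site GTTGCC of the X-box, the element bound by the RFX factors that switch on ciliary genes, and for TGTTTAC, a core of the kind bound by forkhead factors such as FOXJ1. RefSeq windows (GRCm38.p6) were matched for 62 of the 75 genes by symbol. Cfap157, Cfap299, Cfap53, Cfap54, Cfap65, Cfap73, Cfap97, Dnaaf1, Dnah3, Foxj1, Rsph1, Rsph10b and Rsph4a were not matched. The first listed window of each gene was used. With both strands read over the 250 bases before the start, 21 of 62 windows (33.9%) held GTTGCC, against 2833 of 27025 (10.5%) of all genes. Dnah7a, Dnah7b and Dnah7c, which are near-identical copies, each held a match and were counted separately. TGTTTAC was in 4 of 62 (6.45%), against 836 of 27025 (3.09%). No match of 1 motif can be a match of the other, and 1 window, that of Cfap20, held both. The windows of 4 genes with a match and of 1 without are shown because they belong to genes described below. Capitals mark GTTGCC or its reverse complement GGCAAC.
Ccno, chr13:112987552-112987801, plus strand: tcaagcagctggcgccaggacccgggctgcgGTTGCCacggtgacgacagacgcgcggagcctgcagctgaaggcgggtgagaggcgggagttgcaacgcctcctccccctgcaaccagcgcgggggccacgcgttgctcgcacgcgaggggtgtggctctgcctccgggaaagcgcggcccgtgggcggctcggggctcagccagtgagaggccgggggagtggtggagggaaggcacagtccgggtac
Cfap44, chr16:44394549-44394798, plus strand: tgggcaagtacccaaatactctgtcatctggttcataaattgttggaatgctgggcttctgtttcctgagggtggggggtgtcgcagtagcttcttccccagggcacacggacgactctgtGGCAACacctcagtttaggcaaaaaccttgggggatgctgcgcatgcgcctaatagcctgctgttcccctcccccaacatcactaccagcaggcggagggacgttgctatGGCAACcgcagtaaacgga
Cfap74, chr4:155408940-155409189, plus strand: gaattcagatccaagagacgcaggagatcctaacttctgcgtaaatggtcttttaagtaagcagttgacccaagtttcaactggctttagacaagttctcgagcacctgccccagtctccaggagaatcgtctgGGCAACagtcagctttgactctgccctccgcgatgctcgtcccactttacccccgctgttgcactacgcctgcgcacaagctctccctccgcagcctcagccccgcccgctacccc
Tekt2, chr4:126325689-126325938, minus strand: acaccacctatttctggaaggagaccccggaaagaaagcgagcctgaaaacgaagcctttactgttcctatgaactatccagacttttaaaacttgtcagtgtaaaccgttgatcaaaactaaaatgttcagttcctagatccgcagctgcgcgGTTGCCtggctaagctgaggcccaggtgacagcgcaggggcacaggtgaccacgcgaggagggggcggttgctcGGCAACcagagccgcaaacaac
Cfap69, chr5:5664233-5664482, minus strand: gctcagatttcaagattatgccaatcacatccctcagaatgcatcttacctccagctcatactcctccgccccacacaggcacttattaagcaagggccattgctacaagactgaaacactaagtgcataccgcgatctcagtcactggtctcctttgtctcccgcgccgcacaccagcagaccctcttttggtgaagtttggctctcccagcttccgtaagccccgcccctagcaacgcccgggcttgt
In the Cfap44 window the second match begins 19 bases before the start, and the match in Ccno begins 219 bases before it. Tekt2 has matches that begin 96 and 22 bases before its start, and Cfap74 has a match that begins 116 bases before. The Cfap69 window holds neither motif, which says only that these letters are not in it.

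Levels differed widely among the 75 genes. Averaged over the 9 libraries as deposited, 63 were above 1 FPKM and 20 above 10 FPKM, with a median of 5.33 FPKM. The highest were Cfap126 (53.3 FPKM), known as Flattop and needed in mice to position basal bodies, the radial spoke head gene Rsph1 (35.5 FPKM), and Foxj1 (35.3 FPKM), the forkhead factor that drives motile ciliogenesis. Dynein heavy chain genes, which encode very large proteins, had low levels per length: the outer-arm chains reached at most 6.12 FPKM (Dnah5) and the others at most 3.29 FPKM (Dnah7a). At the other end, Cfap97d1 and Rsph6a averaged 0.00226 and 0.00694 FPKM, and Dnah17, Dnah14, Tekt5 and Dnah8 averaged 0.0675 to 0.197 FPKM. The 6 spermatid markers examined beside them (Prm1, Prm2, Tnp1, Tnp2, Acrv1 and Odf1) summed to at most 0.213 FPKM in any library. Respiratory ciliated cell markers were abundant, among them Ccdc153, at 99.5 ± 30.7 scaled FPKM in papain+MSC-Exos libraries, 108 ± 33.4 in papain libraries and 84.4 ± 10.9 in control libraries (mean ± SD, n = 3 each).

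**Figure D1:**
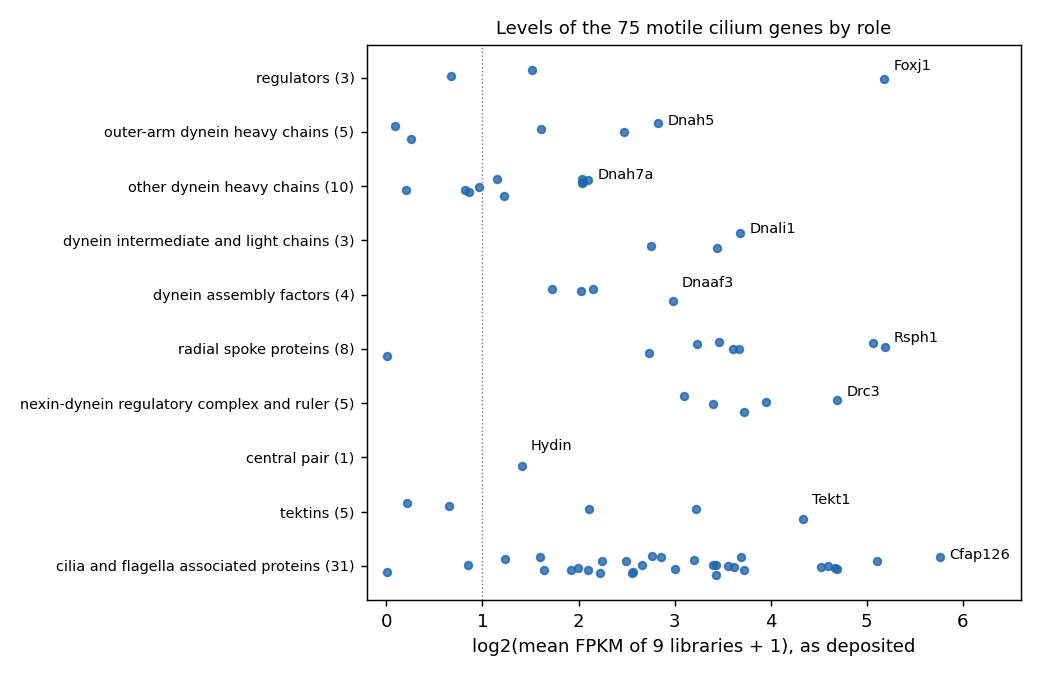
Mean FPKM of each of the 75 genes over 9 libraries as deposited, on a log2(FPKM + 1) axis, in rows by role with the number of genes in brackets. Each point is 1 gene, the highest of each role is named, and the dotted line marks 1 FPKM. Cfap126, Rsph1 and Foxj1 lie furthest right at 53.3, 35.5 and 35.3 FPKM.

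In scaled values most members moved together from library to library inside each group. Papain library 1 was the lowest of the 3 papain libraries for 57 of 64 tested members in scaled values (89.1%), against 35.1% of all tested genes. Exosome library 3 was the highest of its group for 59 of 64 (92.2%, against 42.9% of all tested genes), and control library 2 the lowest of its group for 50 of 64 (78.1%, against 36.8%). The ranks turn with the scale. As deposited, exosome library 1 was the highest of its group for 73.8% of members (all genes 70.6%) and library 3 for 20.0% (4.27%). Papain library 1 was the lowest for 53.8% (5.38%) and papain library 2 for 46.2% (89.2%). Control library 2 was the lowest for 78.5% (37.2%). The summed scaled FPKM of all 75 genes was 599.9, 559.2 and 791.0 in papain+MSC-Exos libraries 1 to 3, 491.2, 683.7 and 672.8 in papain libraries, and 601.7, 540.6 and 635.7 in control libraries. The 3 groups overlap in this scaled sum. As deposited the sums were 892.3 to 1047 in papain+MSC-Exos libraries, 485.5 to 653.5 in papain libraries and 412.3 to 486.5 in control libraries.

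In scaled values, markers of mature olfactory sensory neurons lay the other way round within the groups. Their summed level over 12 genes was 805.6, 1057 and 599.1 scaled FPKM in papain+MSC-Exos libraries 1 to 3, 528.2, 292.8 and 384.1 in papain libraries, and 745.0, 843.4 and 686.0 in control libraries. In each group the library with the highest scaled olfactory sum (exosome 2, papain 1 and control 2) was the one with the lowest scaled motile cilium sum. As deposited this held for exosome library 2 and control library 2 but not in the papain group. There papain library 2 had both the lowest olfactory sum (207.9 FPKM) and the lowest motile cilium sum (485.5 FPKM). All 12 olfactory markers, among them Omp, passed the filter. In bulk tissue a change in the number of cells of a type and a change in RNA per cell cannot be told apart, and the part of tissue sampling in these sums was not tested.

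**Figure D2:**
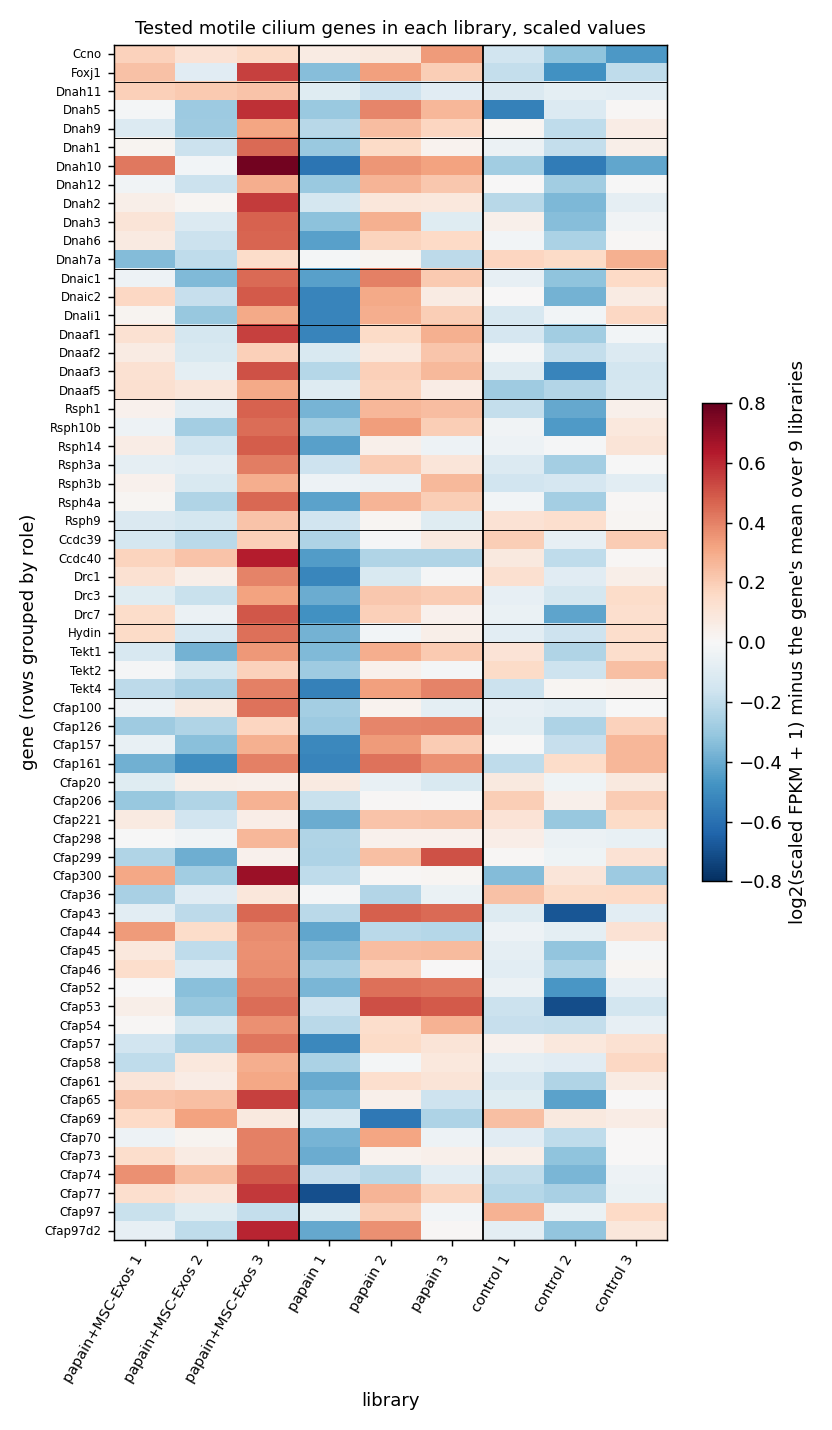
Deviation of each of the 64 tested members from its own mean over 9 libraries, in scaled values on the log2(FPKM + 1) scale (red above, blue below), with libraries as columns and genes as rows grouped by role. Papain library 1 is blue and exosome library 3 red through most rows, while Cfap69, at 18.9, 13.7 and 17.4 scaled FPKM, is highest in papain library 1 among the papain libraries.

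**Figure D3:**
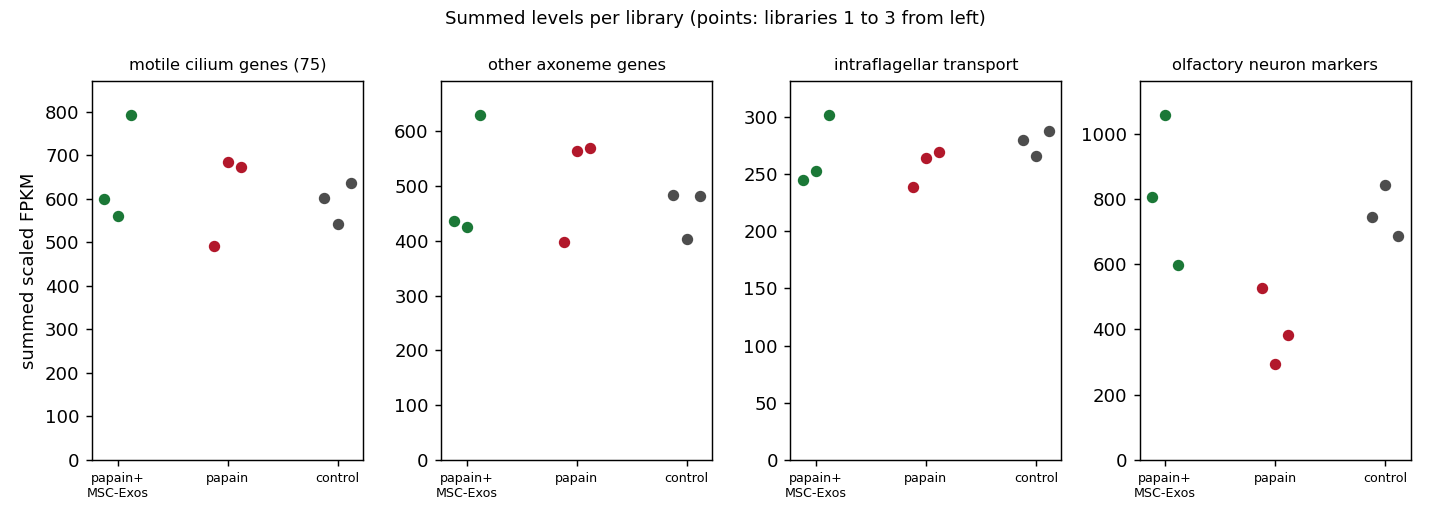
Summed scaled FPKM per library of the 75 motile cilium genes, of other axoneme genes, of intraflagellar transport genes and of olfactory sensory neuron markers, each point 1 library, with libraries 1 to 3 from left to right in each group. The motile cilium sums overlap between all groups, and the olfactory sums of the papain libraries (292.8 to 528.2) lie under those of the other groups.

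The comparison of papain with control asks what the model does to these genes, and few of them passed the threshold. In scaled values Ccno was higher and Cfap69 lower after papain, 1 member in each direction of 64 tested, or 1.56% each. Over all genes tested, 5.77% were higher and 4.15% lower (9.92% in either direction). The median change of tested members was 0.05, against -0.00 for all 12507 genes tested. As deposited, 1 of 65 members was higher and 0 lower (all genes 3.01% and 0.518%, or 3.52% in either direction), with a median change of 0.23 against 0.19 for all 12738 genes tested. At an unadjusted p under 0.05 there were 6 members in scaled values and 12 as deposited. The share over all genes at that threshold was not counted, so these 2 counts have no background to be read against.

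Ccno encodes cyclin O, which multiciliated cells need to multiply their basal bodies (ENSMUSG00000042417, chromosome 13, 112987802 to 112990777, plus strand, GENCODE M21 on GRCm38). It stood at 1.76, 1.78 and 2.34 scaled FPKM in papain libraries and at 1.37, 1.10 and 0.917 in control libraries. Every papain library was above every control library, and the change was 0.47 ± 0.11 (log2, SE, adjusted p = 0.0247). As deposited the change was 0.58 ± 0.19 with adjusted p = 0.103, so the call holds in scaled values only. Leaving out control library 2 or 3 or papain library 3 ended it (adjusted p = 0.0749 to 0.0911). Its neighbour Mcidas, the coactivator that starts the multiciliated programme, was under the filter, at 0.364, 0.305 and 0.464 scaled FPKM in papain libraries and 0.493, 0.263 and 0.120 in control libraries, which overlap. Foxj1 was at 24.9, 40.1 and 36.5 scaled FPKM after papain and at 27.7, 22.4 and 27.4 in controls, a change of 0.35 ± 0.20 that did not pass (adjusted p = 0.291).

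Cfap69 is unusual among these genes in that, in mice, its protein is found in olfactory cilia as well as in the sperm tail (ENSMUSG00000040473, chromosome 5, 5579278 to 5664239, minus strand). It was at 18.9, 13.7 and 17.4 scaled FPKM in papain libraries and at 24.8, 22.1 and 21.8 in control libraries, without overlap. The change was -0.44 ± 0.12 (adjusted p = 0.0457), and as deposited it was -0.21 ± 0.24 (adjusted p = 0.668). The call was lost without any 1 of control libraries 1, 2 and 3, papain libraries 2 and 3 and exosome libraries 1 and 2 (adjusted p = 0.0537 to 0.133). Olfactory neuron markers were lower beside it, in 8 of 12 genes with a median change of -0.91 in scaled values, and in 0 of 12 as deposited with a median of -0.67. Of all genes, 4.15% were lower in scaled values and 0.518% as deposited. The part of olfactory neurons in the Cfap69 value was not tested.

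The dynein, spoke and tektin genes showed no call after papain in either set of values. Of the outer-arm motors, Dnah5 was at 4.39, 7.66 and 6.94 scaled FPKM in papain libraries and 3.55, 5.14 and 5.64 in control libraries (0.33 ± 0.25, adjusted p = 0.434). The outer-arm intermediate chain gene Dnaic1 gave 0.14 ± 0.25 (adjusted p = 0.76), and the inner-arm light chain gene Dnali1 gave -0.02 ± 0.22 (adjusted p = 0.971). Changes of the spoke head genes Rsph1, Rsph4a and Rsph9 were 0.24, 0.11 and -0.17. Tekt1 and Tekt2, tektins of the doublet wall, gave 0.05 and -0.16, and the central pair gene Hydin gave -0.08. In all of the genes named here papain library 1 sat below papain libraries 2 and 3 in scaled values. Dnaic2, the partner chain of Dnaic1, gave 0.05 ± 0.23 (adjusted p = 0.913), and the doublet protein gene Cfap45 gave 0.19 ± 0.19 (adjusted p = 0.567).

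Several positive estimates after papain were in genes whose groups overlapped. Cfap53, a microtubule inner protein, was at 2.84, 5.17 and 5.05 scaled FPKM after papain and at 2.83, 1.64 and 2.89 in controls. Its change was 0.62 ± 0.24 (adjusted p = 0.136), and as deposited it was the 1 member called (0.76 ± 0.21, adjusted p = 0.0491). That call ended without control library 1, 2 or 3 or papain library 3 (adjusted p = 0.0791 to 0.35). Cfap43, needed for the mouse sperm tail, gave 0.53 ± 0.24 scaled (adjusted p = 0.204), Dnah10, an inner-arm heavy chain, gave 0.45 ± 0.26 (adjusted p = 0.314), and Cfap52, also of the doublet interior, gave 0.36 ± 0.24 (adjusted p = 0.386). Lower estimates beside Cfap69 were those of Cfap44 (-0.28, adjusted p = 0.0908) and Cfap36 (-0.28, adjusted p = 0.117). In both, every papain library lay below every control library. Of the tested members 3 lay wholly above and 6 wholly below control in this way, against 15.8% and 14.7% of all genes. As deposited 19 of 65 lay wholly above and 0 wholly below, against 20.7% and 2.42% of all genes. The counts of calls turn on single libraries, and the shares over all genes without each library are not given here. In scaled values 0 members were higher without control library 2 or 3 or papain library 3 and 3 without papain library 1, and 0 were lower without control library 1, 2 or 3, papain library 2 or 3 or exosome library 1 or 2. As deposited 0 were higher without control library 1, 2 or 3 or papain library 3, 3 without papain library 1 or exosome library 3, and 6 without papain library 2.

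The comparison of papain+MSC-Exos with papain asks what the exosomes add. As deposited 57 of 65 tested members were higher and 0 lower with exosomes, where 63% of all genes were higher and 0.73% lower (63.7% in either direction). The median change of tested members was 0.70, against 0.56 for all genes. In scaled values 6 of 64 were higher (9.38%) and 0 lower, where 13.4% of all genes were higher and 16.2% lower (29.5% in either direction), and the median was 0.09 against -0.01. The 6 higher members were Ccdc40, Dnah11, Cfap44, Cfap65, Cfap69 and Cfap74, and all of these were also higher as deposited. Without papain library 1, 2 members were lower in scaled values, a count given without its share over all genes.

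Ccdc40 forms, with Ccdc39, the molecular ruler that sets the spacing of dynein arms and spokes along the doublet (ENSMUSG00000039963, chromosome 11, 119228572 to 119265238, plus strand). It was at 9.70, 10.1 and 13.6 scaled FPKM in papain+MSC-Exos libraries and at 5.94, 7.00 and 6.97 in papain libraries. The groups do not overlap, and the change was 0.66 ± 0.13 (adjusted p = 0.00743; 1.31 ± 0.18 as deposited). Its partner Ccdc39 was at 12.5, 11.8 and 16.0 with exosomes and 11.5, 13.8 and 14.7 after papain, a change of 0.00 ± 0.13 (adjusted p = 0.982) in scaled values. Exons of Ccdc39 share 16.9% of their bases with Ttc14 on the opposite strand, and the strand setting of the library is not given, so reads of these genes may be mixed. Drc1, a subunit of the nexin-dynein regulatory complex, was at 12.2, 11.6 and 15.1 with exosomes and 7.46, 10.2 and 11.1 after papain. Its groups do not overlap either, but the change of 0.41 ± 0.14 did not pass (adjusted p = 0.0558).

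Dnah11, an outer-arm heavy chain found near the base of the cilium, had closely spaced values within each group (ENSMUSG00000018581, chromosome 12, 117877982 to 118199043, minus strand). It was at 2.24, 2.28 and 2.31 scaled FPKM with exosomes and at 1.65, 1.53 and 1.67 after papain. The change was 0.33 ± 0.07 (adjusted p = 0.0107; 0.83 ± 0.18 as deposited). Its exons share 4.44% of their bases with Cdca7l on the opposite strand. The other tested outer-arm chains were not called in scaled values: Dnah5 gave -0.03 ± 0.25 (adjusted p = 0.948) and Dnah9, of the outer part of the cilium, gave -0.09 ± 0.17 (adjusted p = 0.705). As deposited both were higher, by 0.60 and 0.50. Whether their changes differ from that of Dnah11 was not tested. Inner-arm chains Dnah1 and Dnah6 gave 0.14 ± 0.17 and 0.16 ± 0.19 in scaled values (adjusted p = 0.557 and 0.575).

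The remaining calls were in Cfap genes. Cfap44, which mice need for the sperm tail (ENSMUSG00000071550, chromosome 16, 44394796 to 44482428, plus strand), was at 8.18, 7.02 and 8.42 scaled FPKM with exosomes and at 4.43, 5.25 and 5.19 after papain (0.57 ± 0.09, adjusted p = 0.0044). Cfap74, of the central apparatus (ENSMUSG00000078490, chromosome 4, 155409190 to 155466823, plus strand), was at 5.44, 4.91 and 6.05 with exosomes and at 3.40, 3.29 and 3.71 after papain (0.53 ± 0.10, adjusted p = 0.00674). Both sets of libraries are well apart. Cfap65, another gene of the sperm tail (ENSMUSG00000047021, chromosome 1, 74902071 to 74935599, minus strand), was at 12.8, 12.9 and 16.2 with exosomes and 8.18, 11.1 and 9.52 after papain (0.50 ± 0.14, adjusted p = 0.0275). Cfap69 was at 23.4, 26.3 and 22.0 with exosomes, against 18.9, 13.7 and 17.4 after papain (0.50 ± 0.12, adjusted p = 0.0143). Cfap65 was chosen for description, like Dnaaf3 and Dnaaf5 below, after its values were seen.

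Leaving out each of the 9 libraries in turn did not end the calls of Ccdc40, Dnah11, Cfap44 and Cfap74 in this comparison. The call of Cfap69 ended without exosome library 2 (adjusted p = 0.0575), and that of Cfap65 without papain library 1 or 3 or any 1 exosome library (adjusted p = 0.0548 to 0.0734). Olfactory neuron markers were higher beside them, in 11 of 12 genes in scaled values (median 1.04) and 12 of 12 as deposited (median 1.74). Of all genes, 13.4% were higher in scaled values and 63% as deposited. Omp was at 354 ± 104 scaled FPKM with exosomes and 155 ± 50.4 after papain (SD, n = 3 each). The part of olfactory cells in these calls was not tested. Of the tested members, 8 lay wholly above papain in scaled values and 0 wholly below, where 21.1% and 23.8% of all genes did. As deposited 56 of 65 lay wholly above and 0 wholly below, against 57.5% and 0.816% of all genes.

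**Figure D4:**
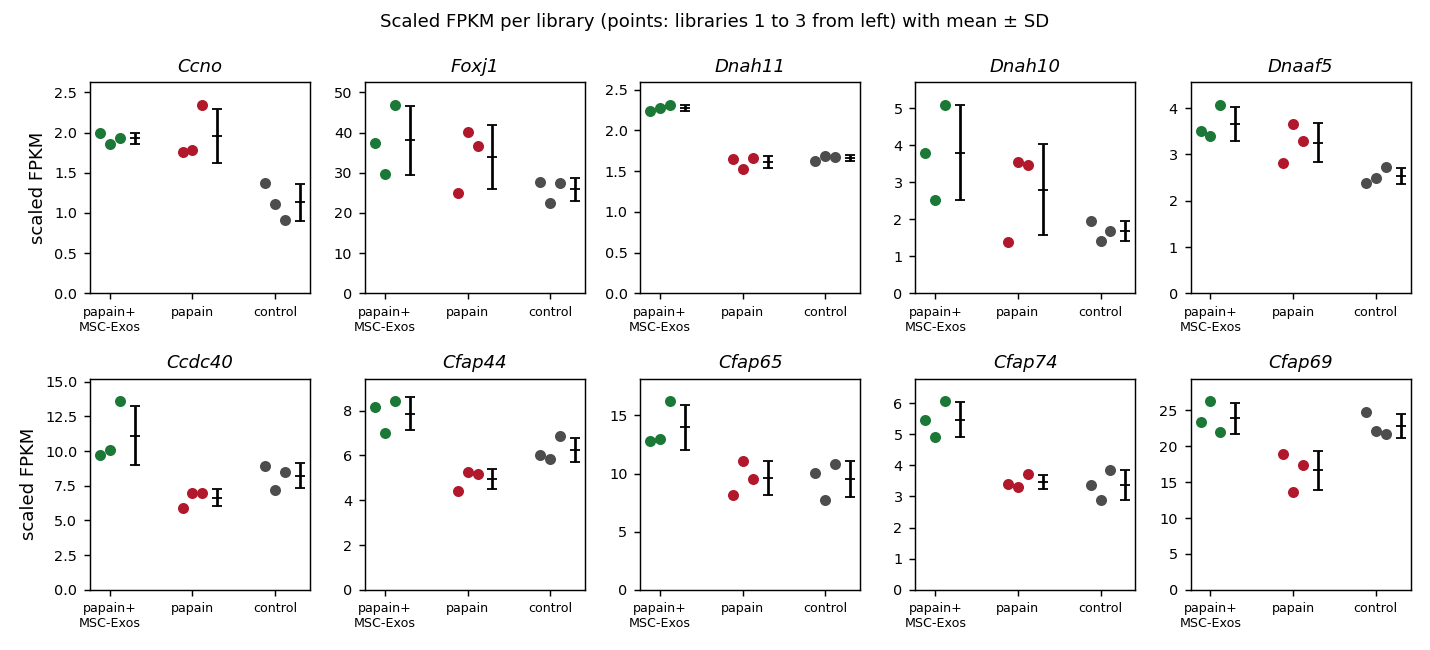
Scaled FPKM of 9 members called in at least 1 comparison, and of Foxj1, which was not. Points are libraries 1 to 3 from left to right in each group, bars are mean ± SD, and axes start at 0. Dnah11 and Cfap74 lie higher in every exosome library (2.24 to 2.31 and 4.91 to 6.05) than in any other library, and Ccno is lowest in the controls (0.917 to 1.37).

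Neither tested regulator gene was called between exosome and papain libraries in scaled values. Foxj1 was at 37.5, 29.8 and 46.9 with exosomes against 24.9, 40.1 and 36.5 after papain (0.17 ± 0.20, adjusted p = 0.545), and Ccno was at 2.00, 1.85 and 1.93 against 1.76, 1.78 and 2.34 (-0.01 ± 0.11, adjusted p = 0.951). As deposited both were called higher, by 0.87 and 0.48. Mcidas, not tested, was at 0.924, 0.685 and 0.749 with exosomes against 0.364, 0.305 and 0.464 after papain, which do not overlap. The lowest estimates in scaled values were -0.37 for Cfap299, -0.29 for Cfap126 and -0.25 for Cfap161, a microtubule inner protein. None of these passed (adjusted p = 0.143, 0.31 and 0.549). Cfap126 was at 41.5, 43.0 and 57.4 with exosomes and at 41.5, 67.0 and 67.5 after papain, so its groups overlap.

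The comparison of papain+MSC-Exos with control asks where treated mucosa stands against untreated mucosa, and it shares its libraries with the comparisons above. As deposited all 65 tested members were higher and 0 lower, where 84.3% of all genes were higher and 0.526% lower (84.8% in either direction), with a median of 0.98 against 0.76. In scaled values 7 of 64 were higher (10.9%) and 0 lower, where 12.3% of all genes were higher and 15.6% lower (27.9% in either direction), with a median of 0.20 against 0.01. The 7 were Ccno, Cfap44, Cfap65, Cfap74, Dnaaf5, Dnah10 and Dnah11, all of them higher as deposited too. Shares over all genes are not given for the counts that follow, so these are not to be read as particular to the members. Without exosome library 1 the scaled count was 2, without control library 1 it was 3, and without control library 2 or 3 or exosome library 3 it was 4. One member was lower without control library 2, and 3 were lower without exosome library 3.

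Dnah10, an inner-arm heavy chain (ENSMUSG00000038011, chromosome 5, 124725085 to 124834308, plus strand), had the largest estimate. It was at 3.79, 2.52 and 5.09 scaled FPKM with exosomes and at 1.94, 1.42 and 1.68 in controls (0.81 ± 0.26, adjusted p = 0.044). Every exosome library was above every control library, but they also spread over a range of their own, and the call ended without any 1 control library or without exosome library 1 or 3 (adjusted p = 0.0791 to 0.119). Papain libraries were at 1.38, 3.56 and 3.46, with library 1 below every control library and libraries 2 and 3 within the range of the exosome libraries. Cfap74 was at 5.44, 4.91 and 6.05 with exosomes and 3.36, 2.89 and 3.86 in controls (0.57 ± 0.10, adjusted p = 0.00505), and leaving out each library did not end its call. Dnah11 was at 2.24, 2.28 and 2.31 against 1.62, 1.69 and 1.67 (0.30 ± 0.07, adjusted p = 0.0152), and its call ended without exosome library 1 or 2 (adjusted p = 0.0508 and 0.0509).

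Dnaaf5, which helps to assemble dynein arms in the cytoplasm (ENSMUSG00000025857, chromosome 5, 139150223 to 139186510, plus strand), was at 3.50, 3.40 and 4.07 scaled FPKM with exosomes and 2.38, 2.50 and 2.73 in controls. The change was 0.39 ± 0.10 (adjusted p = 0.0164), and it was lost without control library 1 (adjusted p = 0.056). Its exons share 10.6% of their bases with Gm15672. Dnaaf1 and Dnaaf3, of the same assembly machinery, gave 0.32 (adjusted p = 0.298) and 0.44 (adjusted p = 0.0944). Ccno was at 2.00, 1.85 and 1.93 with exosomes and 1.37, 1.10 and 0.917 in controls (0.46 ± 0.11, adjusted p = 0.0145). Its call ended without control library 3 or exosome library 1 (adjusted p = 0.0537 and 0.0576). Cfap44 (0.29 ± 0.09, adjusted p = 0.0464) lost its call without any 1 of control libraries 1 to 3, papain library 3 and exosome libraries 1 and 3 (adjusted p = 0.0529 to 0.144), and Cfap65 (0.51 ± 0.14, adjusted p = 0.0272) without control library 1 or 2 or any 1 exosome library (adjusted p = 0.0502 to 0.0773).

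Foxj1 was at 37.5, 29.8 and 46.9 scaled FPKM with exosomes and 27.7, 22.4 and 27.4 in controls. These do not overlap, but the change of 0.52 ± 0.20 did not pass (adjusted p = 0.0726), while as deposited it did (1.45 ± 0.19, adjusted p = 2.37e-05). Ccdc40 was likewise apart (9.70, 10.1 and 13.6 against 8.95, 7.20 and 8.51) at 0.39 ± 0.13 and adjusted p = 0.0504. Estimates below 0 were led by Dnah7a (-0.34, adjusted p = 0.0717), Cfap97 (-0.28, adjusted p = 0.0771) and Cfap36 (-0.27, adjusted p = 0.0756). Dnah7a was at 2.30, 2.65 and 3.66 with exosomes and 3.74, 3.67 and 4.11 in controls. It has the paralogs Dnah7b and Dnah7c on the same chromosome, whose reads may be split with it, so its level is uncertain, as are those of the paired genes Rsph3a and Rsph3b. The direction of these 3 genes turns with the scale: as deposited Dnah7a (0.40), Cfap97 (0.42) and Cfap36 (0.66) were called higher.

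Among 64 tested members, 13 lay wholly above control and 3 wholly below it in scaled values, where 23% and 23.9% of all genes did. As deposited 64 of 65 lay wholly above and 0 wholly below, against 87.5% and 0.589% of all genes. Among 12 olfactory neuron markers, 0 were called in scaled values (median 0.02), where 27.9% of all genes were called. As deposited 11 of the 12 were higher (median 0.95), where 84.3% of all genes were. The part of olfactory cells in this comparison was not tested. Spoke, tektin and central pair genes had no call in scaled values. Rsph1 gave 0.33 ± 0.20 (adjusted p = 0.246), Rsph9 gave -0.10 ± 0.11 (adjusted p = 0.524), Tekt1 gave -0.06 ± 0.21 (adjusted p = 0.864) and Hydin gave 0.19 ± 0.16 (adjusted p = 0.396).

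**Figure D5:**
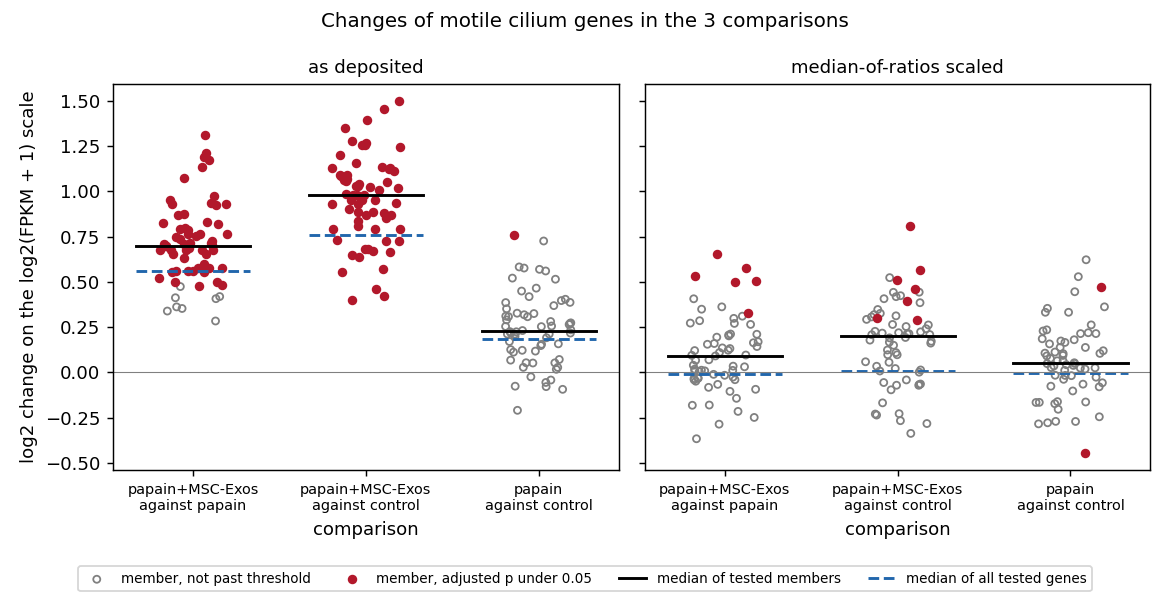
Change of each tested member in the 3 comparisons on the log2(FPKM + 1) scale, as deposited (left, 65 genes) and scaled (right, 64 genes). Filled points are past an adjusted p of 0.05, black lines are medians of tested members and dashed blue lines medians of all tested genes. As deposited the exosome comparisons have medians of 0.70 and 0.98, and in scaled values they centre near the blue line, with medians of 0.09 and 0.20.

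Other genes of the same machinery were counted in the same way. Of 35 tested axoneme genes outside the 75, in scaled values 6 were higher and 0 lower with exosomes than after papain (median 0.07), 4 higher and 2 lower with exosomes than in controls (median 0.06), and 0 higher and 1 lower after papain than in controls (median 0.03). Over all genes 13.4% were higher and 16.2% lower against papain in scaled values. With exosomes against controls these shares were 12.3% and 15.6%, and after papain against controls 5.77% and 4.15%. As deposited, 29 of 36 were higher with exosomes than after papain, 35 of 36 higher with exosomes than in controls and 0 changed after papain, with 0 lower in each comparison. Of all genes as deposited, 63%, 84.3% and 3.01% were higher in these comparisons. Called against papain in scaled values were the central pair bundling gene Spef1 (0.49), the regulatory complex subunit gene Gas8 (0.56), the outer-arm docking gene Ccdc114 (0.40), Dnal1 (0.36), Zmynd10 (0.38) and Stk36 (0.30). Gas8 was at 7.34 ± 0.915 scaled FPKM with exosomes and 4.67 ± 0.754 after papain (SD, n = 3 each). Iqub was lower after papain than in controls in scaled values (-0.49, adjusted p = 0.013), with -0.27 as deposited (adjusted p = 0.475).

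The scaled counts of this paragraph stand beside the same scaled shares of all genes: 13.4% higher and 16.2% lower with exosomes against papain, 12.3% and 15.6% with exosomes against controls, and 5.77% and 4.15% after papain. In scaled values, of 14 tested genes for multiciliated cell differentiation and basal bodies, 2 were higher and 2 lower with exosomes than after papain, 2 higher and 0 lower with exosomes than in controls, and 1 higher and 0 lower after papain than in controls. Intraflagellar transport, the traffic that builds every kind of cilium including the olfactory one, had 7 of 24 genes higher in scaled values and 2 lower with exosomes than after papain, 5 higher and 2 lower with exosomes than in controls, and 1 higher and 1 lower after papain than in controls. Ift122 was at 6.17 ± 0.35 scaled FPKM with exosomes and 3.67 ± 0.523 after papain (0.62, adjusted p = 0.0033). Ift20 went the other way (-0.50, adjusted p = 0.042). Of 13 respiratory ciliated cell markers, in scaled values, 1 was higher and 0 lower with exosomes than after papain, 1 higher and 0 lower with exosomes than in controls, and 0 higher and 1 lower after papain than in controls. Their median change with exosomes against papain was -0.11, with 6 of 13 estimates above 0 and the lowest at -0.51. It was 0.07 with exosomes against controls and 0.19 after papain against controls. Sec14l3 was at 261 ± 33.3 with exosomes and 135 ± 20.1 after papain (0.95, adjusted p = 0.0035). The scaled estimates of Sec14l3 were -0.88 after papain against controls and 0.07 with exosomes against controls. Cdhr4 was at 42.2 ± 12.2 with exosomes and 18.5 ± 3.46 in controls (1.13, adjusted p = 0.00799). As deposited, the counts higher with exosomes than after papain were 10 of 16 genes for differentiation and basal bodies, 21 of 24 for transport and 9 of 13 ciliated cell markers, where 63% of all genes were higher. With exosomes against controls they were 15 of 16, 23 of 24 and 13 of 13 as deposited, where 84.3% of all genes were higher. None of these lists had a lower gene as deposited, and after papain 1 ciliated cell marker was higher.

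Half-sites of the X-box, marked in the sequences above, were in the windows of 4 of the 8 called members that have one (Ccno, Cfap44, Cfap74 and Dnah10), and in those of genes with no call in scaled values, such as Tekt2, Tekt1, Drc1, Hydin and Dnaic2. Of the 9 called members, 4 share no exon bases with another annotated gene.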

How the data were processed

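Nasal mucosa of mice was measured by poly(A) RNA sequencing in 3 groups of 3 libraries, grouped and numbered by their titles. The authors deposited 1 table of FPKM for 21930 Ensembl identifiers, per the file headers. fastp 0.19.4, HISAT2, StringTie and mm10 are named in the submitters' processing notes. The annotation, strand setting and treatment of paralog reads were not stated there or in the labels. FPKM depends on library size, so a change in abundant genes alters the share left for the others together. Symbols came from a table that held 21817 of the identifiers, and coordinates from GENCODE M21 (GRCm38, the assembly of mm10), in which 34 of the 75 genes share exon bases with another gene.

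Depth is not stated. A rough step in the low values of 4327 single-transcript genes puts it at 15.1 to 24.7 M fragments (M, mega), but the share of values no further than 0.05 from a whole number of steps was 14.8% to 18.7%, against 10% for even spread, so whole reads were not recovered and no count test was run. Spearman correlations were 0.979 to 0.988 within groups and 0.966 to 0.98 between them.

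limma 3.58.1 (R 4.3.3) was fitted to log2(FPKM + 1) with a mean-variance trend, all 9 libraries together (6 residual degrees of freedom), on genes of at least 1 FPKM in at least 3 libraries, with Benjamini-Hochberg adjustment and a threshold of 0.05. The model was tested on simulated data with known changes. Python 3.11.15, pandas 2.3.3, NumPy 2.4.6, SciPy 1.17.1 and matplotlib 3.10.9 were used for the rest. The members, gene lists and alternatives were chosen with earlier results of these data known. Members were named by a rule: a fixed list by role, the 3 largest positive and 3 largest negative estimates of each comparison in scaled values, the 3 of highest mean FPKM, and any whose call turned direction with the scale. Lists were described by counts and medians with no test of their own. Alternatives were another pseudocount, other filters, fits of 2 groups, a replicate block, quantile normalization and leaving out each library.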

Additional observations from a re-analysis of the deposited data

How the results depend on the processing

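In scaled values, 10 of the 15 calls of single members were lost on leaving out at least 1 library, and 5 were kept. Within each scale, no value of a named gene reversed past the threshold under any alternative run. Of 3056 such values over both scales, 98 lost a call of the main fit and 33 gained a call. Between the scales, the directions of Dnah7a, Cfap97 and Cfap36 with exosomes against controls turned, as described above. Deviations of same-numbered libraries from their group means had correlations of -0.338 to 0.144 between groups. The labels do not say what the titles' numbers mean, and whether same-numbered libraries share a batch was not tested. With a replicate block, 0 members were higher and 0 lower after papain than in controls in scaled values, and 2 were higher as deposited. Fits of the 2 groups compared gave 0 and 0 scaled and 3 higher as deposited. A pseudocount of 0.1 gave 2 members higher after papain as deposited, and a median of 1.18 for exosomes against control as deposited (0.98 with a pseudocount of 1). With no filter, 0 were higher as deposited and 0 lower scaled after papain. A filter at 5 FPKM tests fewer members (43 as deposited, 41 scaled): it gave 0 higher after papain on either scale, and for exosomes against control 43 higher as deposited and 3 scaled. Quantile normalization gave 0 lower after papain. The cause of these differences was not tested, and the counts are given without the share over all genes in each setting.

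Leaving out 1 library gave, for papain against control, 0 to 6 members higher as deposited, and 0 to 3 higher and 0 to 1 lower scaled. For exosomes against papain it gave 44 to 60 higher as deposited, and 5 to 6 higher and 0 to 2 lower scaled, with a scaled median of -0.05 to 0.17. For exosomes against control it gave 61 to 65 higher as deposited, and 2 to 10 higher and 0 to 3 lower scaled, with a scaled median of 0.06 to 0.30. The scaled median for papain against control was -0.06 to 0.24, and its sign turned. Counts of calls under the alternatives, here and in the paragraphs above, are given without the share over all genes in each setting. They are therefore not to be read as particular to the members. Exact permutation of 3 libraries against 3 cannot give a two-sided p under 0.1, and no such test was used. Genes under 1 FPKM, such as Mcidas and Dnah14, are limited by depth, which is known only roughly.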
